A study of Mus musculus with 6 samples.

Results

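FOXO1 and FOXO3 are forkhead transcription factors, and 7 genes that they are reported to switch on complete the set described here: Txnip, Ccng2, Pik3ip1, Cdkn1b, Irs2, Klf2 and S1pr1. The 9 genes were chosen by name from a deposited table of 29209 entries, of which 18543 were tested. Under these names 7 were found, and the other 2 stand under older ones, Foxo3 as Foxo3a and again as Fkhr2, and S1pr1 as Edg1, so the 9 genes have 10 tested entries.

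RNA was sequenced from 3 DOX and 3 No DOX samples of subcutaneous tumours in NCr nude mice. This strain lacks a thymus but keeps B, myeloid, NK and stromal cells. All 6 samples came from splenic cells of diseased mir-155LSLtTA mice, in which doxycycline (DOX) shuts off an overexpressed miR-155. The DOX mice ate chow with 2.3 mg/kg of doxycycline for 16 hours before harvest, and the No DOX mice were untreated. The labels give neither the age of the mice nor whether each sample was a separate animal, so p-values may measure technical spread, and without a DOX group lacking the transgene the drug and the loss of miR-155 cannot be told apart.

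FOXO proteins sit at the end of the insulin and growth factor pathway. When phosphatidylinositol 3-kinase (PI3K) is active, the kinases AKT and SGK phosphorylate FOXO proteins, 14-3-3 proteins hold them in the cytoplasm, and their target genes fall silent. When the signal drops, FOXO enters the nucleus and activates genes that slow division, raise sensitivity to insulin and, in lymphocytes, direct homing and maturation. RNA levels do not report this change of place, so the factors' own transcripts and those of their targets are separate measurements.

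The table gives the authors' fold, unadjusted p and adjusted p for each entry, with no value per sample and no depth. It does not name the numerator of the fold. Folds are read here as DOX over No DOX, so each direction given here would turn round under the opposite order. "Rose" and "fell" are used at the authors' adjusted p under 0.05. The approximate 95% intervals were computed from the authors' fold and unadjusted p by a normal approximation, and are rough. In bulk RNA, fewer cells of a type and less RNA per cell cannot be told apart.

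Of the 9 genes, 3 rose after DOX and 0 fell by the authors' DESeq test (4 and 0 at an unadjusted p under 0.05), which is 33.3% against 5.72% of all tested entries that rose and 5.61% that fell in the authors' deposited table. Txnip, Cdkn1b and S1pr1 rose. All 7 target genes had a fold above 1, as did 55.9% of tested entries with a finite fold, and their median log2 fold was 1.31, against 0.17 over all such entries. The targets were chosen with earlier results of these data known, so these shares describe them and carry no test.

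**Figure D1:**
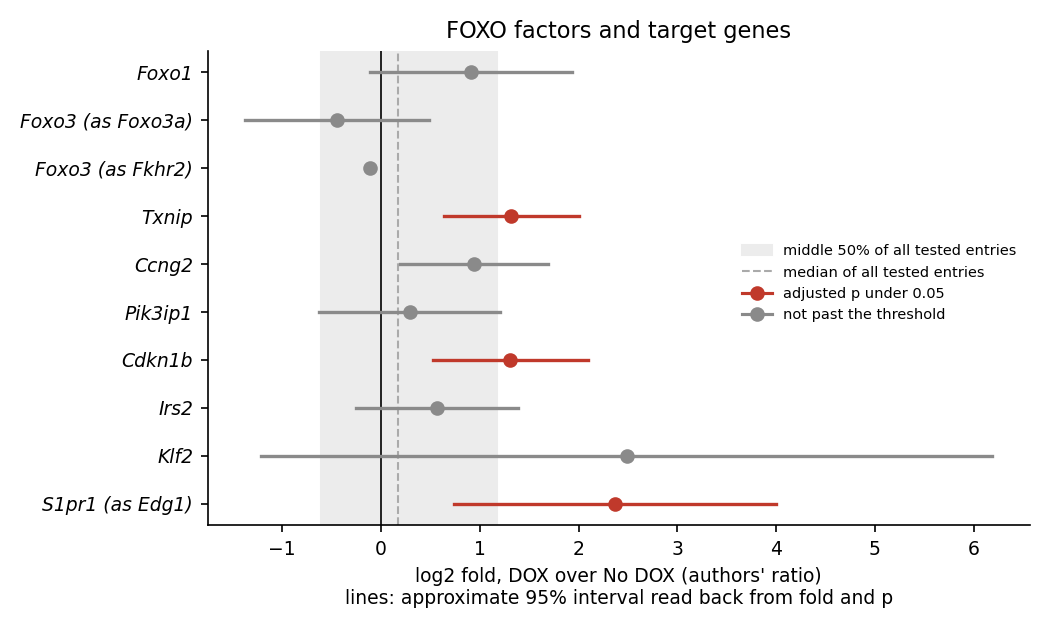
Authors' log2 fold (DOX over No DOX) of each FOXO gene and target, with approximate 95% intervals computed from fold and p; red points have an adjusted p under 0.05, grey points do not, and the band runs from the lower to the upper quartile of all tested entries. Txnip, Cdkn1b and S1pr1 lie right of the band with intervals above 0, Klf2 lies as far right with an interval across 0, and the entry for Fkhr2 has no interval.

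Sequences that bear on these genes are shown first. The search covered 300 bases of promoter (250 before to 50 after the start) from RefSeq, build GRCm38.p6, in which 8 of the 9 genes have an entry, all but S1pr1. The FOXO element GTAAACA, the insulin response element CAAAACA and the shorter FOXO core TAAACA, which lies within the FOXO element, were sought on both strands. Each window below runs 5′ to 3′ on the gene's strand, with the match in capitals.

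Txnip, chr3:96557806-96557872, plus strand, FOXO element: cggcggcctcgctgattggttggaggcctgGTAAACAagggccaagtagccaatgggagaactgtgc
Cdkn1b, chr6:134920354-134920419, plus strand, FOXO core reversed: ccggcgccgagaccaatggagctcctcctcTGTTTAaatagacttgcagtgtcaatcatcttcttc
Ccng2, chr5:93267527-93267593, plus strand, insulin response element: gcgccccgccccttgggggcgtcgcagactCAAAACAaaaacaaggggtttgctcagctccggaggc
Irs2, chr8:11008930-11008996, minus strand, insulin response element reversed: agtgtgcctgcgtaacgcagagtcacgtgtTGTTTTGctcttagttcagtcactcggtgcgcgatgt

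The FOXO element of Txnip lies at bases -121 to -115 from the start, and that word is in 3.65% of all 32851 promoters. The insulin response element, in 6.28% of promoters, lies at -16 to -10 in Ccng2 and at -37 to -31 in Irs2. The core, in 13.4% of promoters, lies at -17 to -12 in Cdkn1b. Neither 7-letter word nor the core was found in the windows of Foxo1, Foxo3, Pik3ip1 and Klf2. A match is a stretch of letters, not a measured binding site.

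**Figure D2:**
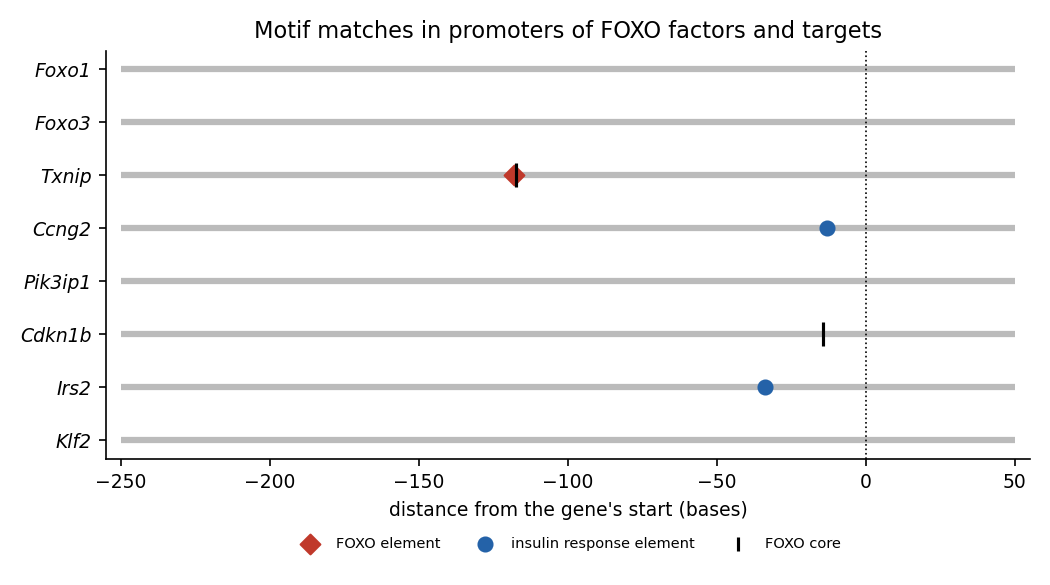
Position of motif matches in the promoters of 8 FOXO genes and targets; the horizontal axis is the distance in bases from the gene's start, each grey bar is the 300 bases searched, diamonds are FOXO elements, circles insulin response elements and ticks FOXO cores. Txnip alone holds the full FOXO element, while Ccng2, Cdkn1b and Irs2 hold their matches at -37 or nearer to the start.

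Over the whole table, entries were set apart by whether a promoter of their gene held a word. Of 401 tested entries with the FOXO element 5.49% rose and 3.24% fell, against 5.23% and 7.03% of 11671 without it. Of 662 with the insulin response element 6.19% rose and 6.19% fell, against 5.18% and 6.95% of 11410 without it.

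The microRNA that DOX withdraws recognises its targets through its seed, bases 2 to 8, shown in capitals in the RefSeq sequence.

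mmu-miR-155-5p: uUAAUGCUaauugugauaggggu

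In the longest annotated 3′ UTR of each gene (GENCODE M21), 7-letter matches to that seed were found in Foxo1, Pik3ip1 and S1pr1. They are given from the transcript sequence with the match in capitals, all of them of the kind that pairs with bases 2 to 8 (AGCATTA).

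Foxo1, 3′ UTR bases 3368 to 3395: cacatatcctgacaatcatAGCATTAcg
Foxo1, 3′ UTR bases 3472 to 3499: aactacatttaagggtctcAGCATTAgg
Pik3ip1, 3′ UTR bases 137 to 164: gacacaagaagatgcaggtAGCATTAtg
S1pr1, 3′ UTR bases 1093 to 1120: gtaccccccactccccaaaAGCATTAct

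Of all tested entries with such an annotation 13.7% hold a 7-letter match, and 9.72% of these rose and 4.02% fell, against 4.48% and 6.95% of those without one. These entries were not matched for length, and direction moved with transcript length over the table. In the longest of 10 bins 15.2% rose and 2.64% fell, against 0.744% and 14.5% in the shortest. The part of length in the seed contrast was not tested. Among the 3 genes with a match S1pr1 rose, while Foxo1 and Pik3ip1 did not pass. Foxo3, which has been reported as a miR-155 target, holds 0 such matches in its 4490 bases and 1 match to the shorter 6-letter seed. Txnip rose with 0 matches of either kind, and Cdkn1b with 0 of 7 letters and 1 of 6.

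Transcripts of the factors themselves did not pass the test. Foxo1, the main FOXO of B lymphocytes, had a fold of 1.88 (log2 0.91, adjusted p = 0.310) in the authors' deposited table, and its interval ran from -0.12 to 1.93 on the log2 scale. Foxo3 was at 0.736 (log2 -0.44, adjusted p = 0.730) as Foxo3a and at 0.924 (log2 -0.11, adjusted p = 1) as Fkhr2 in the authors' deposited table. The Foxo3a interval ran from -1.38 to 0.49, so a fall of more than 2-fold lies inside it. Both factors have long transcripts (8665 and 6848 bases), and among the longest 1479 entries, whose median log2 fold was 0.70, both Foxo3 entries lie below that median.

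The other FOXO genes gave no call either. Foxo4 had a log2 fold of 0.52 (adjusted p = 0.644), and of 2.27 (adjusted p = 0.639) under its older name Mllt7, in the authors' deposited table. Foxo6, best known from the brain, had one of -2.86 (adjusted p = 0.631) in the authors' deposited table, with a very wide interval from -7.91 to 2.19. The 6 FOXO entries, of which 0 passed even at an unadjusted p under 0.05, had a median of 0.20, close to the 0.17 of all tested entries.

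Txnip had the smallest p of the 9 genes. It encodes an alpha-arrestin that binds thioredoxin and limits glucose uptake, and it is switched on by FOXO and by glucose-sensing factors. Its fold was 2.50 (log2 1.32, adjusted p = 0.00348) in the authors' deposited table, with an interval from 0.64 to 2.00. It ranked 784 of 18543 by p, and its log2 fold stood at percentile 77.6 of all finite folds, so the small p goes with a moderate fold. The spread between samples cannot be seen. It also lay 1.36 above the median of entries with transcripts of its length.

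Genes of the thioredoxin system gave 3 falls. Txn1, the cytosolic thioredoxin that Txnip binds, fell (log2 -1.14, adjusted p = 0.0196), as did the mitochondrial thioredoxin gene Txn2 (-1.28, 0.0178) and the thioredoxin reductase gene Txnrd1 (-1.82, 0.000123) in the authors' deposited table. The mitochondrial reductase gene Txnrd2 did not pass (-0.39, adjusted p = 0.937 in the authors' deposited table). Txn1 has a short transcript (1051 bases), in a bin of length where 14.5% of entries fell, and lay 0.48 below the median of that bin, while Txn2 lay 1.07 and Txnrd1 1.86 below theirs. Of the other alpha-arrestins Arrdc3, which controls receptor trafficking, rose (2.11, adjusted p = 0.00969) in the authors' deposited table, though a further entry for it, mKIAA1376, stood at 0.87 (0.754). Arrdc4, a glucose-responsive relative, had a log2 fold of 2.22 (adjusted p = 0.322) in the authors' deposited table, with an interval from -0.33 to 4.76. In that list of 12 entries 1 rose (8.33%) and 3 fell (25%), with a median of 0.12. Over all tested entries 5.72% rose and 5.61% fell.

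Cdkn1b and Ccng2 encode brakes on the cell cycle. Cdkn1b, the gene of p27, which inhibits cyclin-dependent kinases, had a fold of 2.48 (log2 1.31, adjusted p = 0.0153) in the authors' deposited table, with an interval from 0.52 to 2.09. Ccng2, an unusual cyclin that is high in resting cells, had a fold of 1.92 (log2 0.94, adjusted p = 0.0921) in the authors' deposited table and did not pass. Its unadjusted p was 0.0134 and its interval, 0.20 to 1.69, overlaps most of that of Cdkn1b.

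Among the other genes listed with both brakes none rose and 1 fell. Of 12 entries for cyclin G, CIP/KIP inhibitors and the ligase that destroys p27, Cdkn1b itself was the 1 that rose and 1 fell. Each is 8.33% of the list, against 5.72% and 5.61% of all tested entries, and the median was -0.24. The fall was Cks1b, the cofactor with which SKP2 recognises p27 (log2 -2.01, adjusted p = 0.000259 in the authors' deposited table). Cks1b has a short transcript (849 bases), in a bin of length where 14.5% of entries fell. Measured from the median of that bin its log2 fold was -1.35. Skp2 itself had a log2 fold of -0.11 (adjusted p = 0.955 in the authors' deposited table). In the wider list of 12 FOXO targets for cell cycle arrest, Cdkn1b alone passed (8.33%). In that list 8 had a fold above 1, and the median was 0.37.

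Irs2 and Pik3ip1 act back on the pathway that controls FOXO. Irs2, an adaptor of the insulin receptor, had a fold of 1.48 (log2 0.56, adjusted p = 0.498) in the authors' deposited table, with an interval from -0.26 to 1.38. Among entries with transcripts as long (6323 bases) the median was 0.47, so Irs2 lay 0.09 above it. Pik3ip1, a membrane inhibitor of PI3K, had a fold of 1.22 (log2 0.29, adjusted p = 0.891) in the authors' deposited table, with an interval from -0.62 to 1.20. Neither gene passed, and a rise to more than 2-fold is inside both intervals.

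Other feedback targets with long transcripts rose. Rictor, the defining subunit of the complex that activates AKT, listed as 4921505C17Rik, had a log2 fold of 1.73 (adjusted p = 0.000278) in the authors' deposited table. The growth factor receptor gene Igf1r (3.14, 0.00367), the insulin receptor gene Insr (0.99, 0.0402) and the catalytic PI3K subunit gene Pik3ca (1.08, 0.0497) also passed there. In all 4 of 15 entries rose (26.7%, against 5.72% of all tested entries) and 0 fell, with a median of 0.47. All 4 lie in the bin of the longest transcripts, where 15.2% of entries rose. Measured from the median of that bin (0.70), the log2 fold of Igf1r was 2.44, of Rictor 1.03, of Pik3ca 0.38 and of Insr 0.29.

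Klf2 and S1pr1 belong to the homing arm of FOXO1. KLF2 is a zinc finger factor of resting lymphocytes and endothelium that activates S1pr1, the receptor for sphingosine 1-phosphate through which lymphocytes leave tissues. S1pr1 had a fold of 5.16 (log2 2.37, adjusted p = 0.0420) in the authors' deposited table, with an interval that began at 0.73. Klf2 had a larger fold, 5.61 (log2 2.49), but an adjusted p of 0.512 in the authors' deposited table, and its interval ran from -1.21 to 6.19. The estimates are alike in size, while the approximate error on the log2 scale was 1.89 for Klf2 and 0.833 for S1pr1.

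Of 15 KLF entries 0 rose and 0 fell by the authors' DESeq test (4 and 0 at an unadjusted p under 0.05), although 10 of 13 with a finite fold were above 1 and their median was 1.26. Of 10 entries of the sphingosine 1-phosphate system S1pr1 alone rose (10%, against 5.72% of all tested entries). S1pr4, the receptor of blood cells, had a log2 fold of 0.94 (adjusted p = 0.156) in the authors' deposited table. Cd69, whose product removes S1PR1 from the cell surface, had one of 1.53 (adjusted p = 0.451) in the authors' deposited table.

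Endothelial cells also express Klf2 and S1pr1. Of 13 endothelial marker entries 0 rose and 1 fell (7.69%), with 10 above 1 and a median of 0.89 in the authors' deposited table. Over all tested entries 5.72% rose and 5.61% fell. Markers of macrophages leaned upward in the same comparison (3 of 13 rose, 23.1%, 0 fell, median 2.16). So did those of fibroblasts (2 of 11 rose, 18.2%, 0 fell, median 1.95). B lineage markers had 4 of 15 that rose (26.7%) and 2 that fell (13.3%), with a median of 0.41. T cell markers had 0 of 10 either way (median 0.20, with 1 rise at an unadjusted p under 0.05), and NK cell markers 0 of 9 (median 3.38, 0 unadjusted). The part of these cells in the folds of S1pr1, Klf2 and the other targets was not tested. Without levels the labelled tumour cannot be checked against its defining markers.

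Within the lymphocyte list the larger rises were in maturation genes. Rag1, which cuts antigen receptor genes and is activated by FOXO1 (log2 5.46, adjusted p = 1.22e-06), and the interleukin 7 receptor gene Il7r (4.14, 0.000901) rose most in the authors' deposited table. The transcription factor gene Bach2 (1.56, 0.0384) and the B cell adaptor gene Blnk (1.04, 0.0397) passed as well in the authors' deposited table. With S1pr1 this makes 5 of 16 entries that rose (31.2%, against 5.72% of all tested entries) and 0 that fell. Of 15 finite folds 14 were above 1, and the median was 1.18. S1pr1 is on this list as a KLF2 target, and Cd69 as an antagonist of S1PR1. Rag1 and Blnk also stand on the B lineage marker list.

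Lists of targets with other roles held 2 rises each. These were 20% of the cell death entries, 16.7% of the metabolic ones and 14.3% of those for autophagy and protein breakdown. The 1 fall among the metabolic entries was 8.33%. Of all tested entries 5.72% rose and 5.61% fell. Among 10 cell death entries the repressor gene Bcl6 (log2 2.75, adjusted p = 1.05e-05) and the BH3-only gene Bmf (1.56, 0.0103) rose in the authors' deposited table and 0 fell. Bcl2l11, the gene of the BH3-only protein BIM and a much studied FOXO target, had a log2 fold of -0.41 (adjusted p of 0.792) in the authors' deposited table, with an interval from -1.39 to 0.57. Among 12 metabolic and antioxidant entries the transcriptional repressor gene Hbp1 (1.29, 0.00566) rose with Txnip, and the mitochondrial peroxiredoxin gene Prdx3 fell (-1.21, 0.0240) in the authors' deposited table. Ulk2 (1.57, 0.00623) and Wipi1 (2.61, 0.00873), which act at the start of autophagy, rose among 14 autophagy and protein breakdown entries in the authors' deposited table, and 0 fell.

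**Figure D3:**
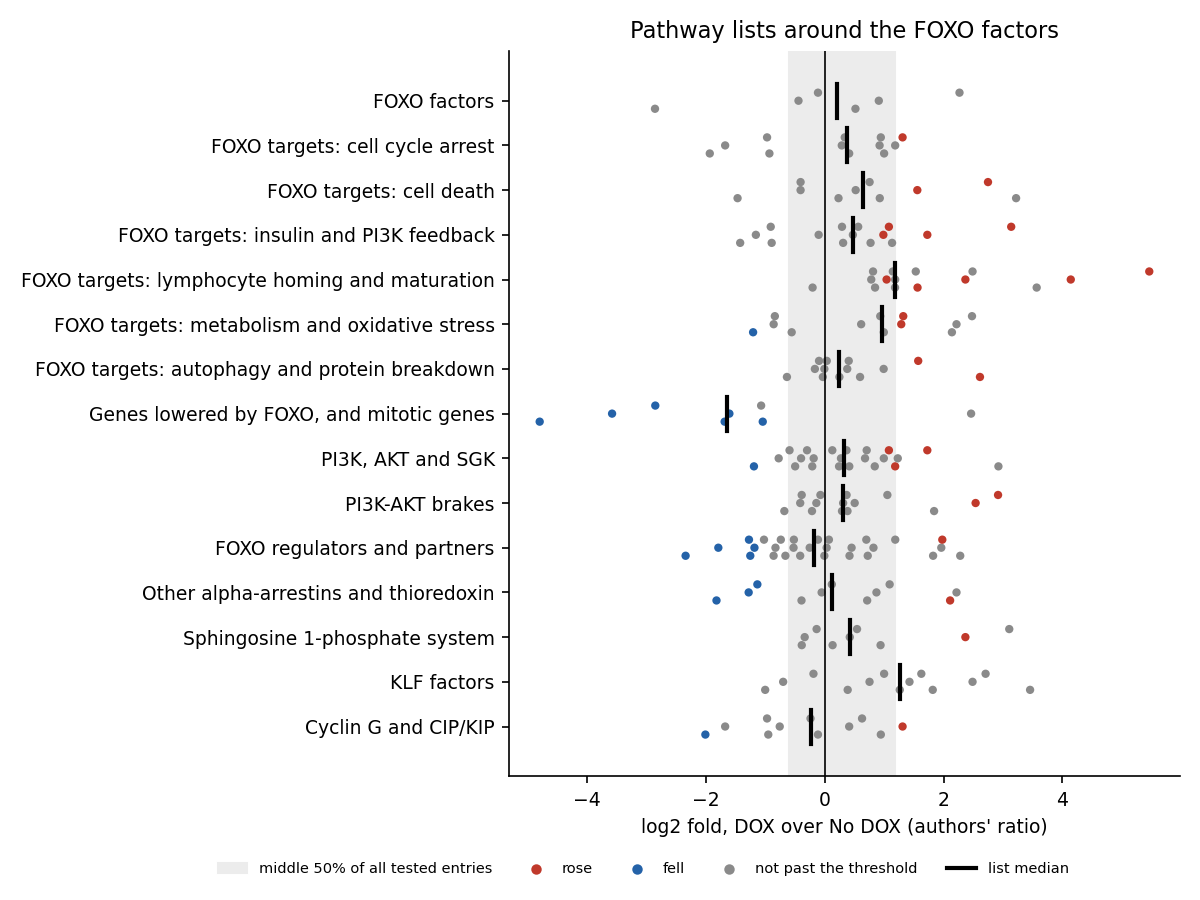
Log2 fold (DOX over No DOX, authors' ratio) of every entry with a finite fold in 15 lists around the FOXO factors; each point is an entry, red rose, blue fell, grey did not pass, black bars are list medians and the band runs from the lower to the upper quartile of all tested entries. Red points outnumber blue in the 6 FOXO target lists, and the list of 6 genes reported to be lowered by FOXO and 2 mitotic genes lies mostly left of 0, with a median of -1.65.

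Of all tested entries 5.72% rose and 5.61% fell. Over the 6 FOXO target lists together 16 of 79 entries rose (20.3%) and 1 fell (1.27%). Without the named target genes 13 of 72 rose (18.1%) and 1 fell (1.39%). The mitotic genes Plk1 and Ccnb1, which FOXO has been reported to activate, are not on these lists and both fell, and with them 16 of 81 rose (19.8%) and 3 fell (3.70%). At an unadjusted p under 0.05 the whole 79 held 26 above 1 and 3 below. The medians were 0.77 with the named target genes and 0.68 without them. These lists were drawn up with earlier results known, and they hold several genes already seen to rise. They also count S1pr1, a KLF2 target, and Cd69, an antagonist of S1PR1.

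Of 6 genes reported to be lowered by active FOXO 4 fell (66.7%, against 5.61% of all tested entries) and 0 rose, with a median of -2.27. They were Myc (log2 -4.80, adjusted p = 4.34e-21), the cyclin D genes Ccnd2 (-3.58, 1.83e-08) and Ccnd1 (-2.85, 0.00270), and the hexokinase gene Hk2 (-1.69, 0.0137) in the authors' deposited table. Plk1 (-1.61, 0.000499) and Ccnb1 (-1.04, 0.0375), which stand on the same list although FOXO has been reported to activate them, fell there too, so that the list of 8 held 6 that fell and had a median of -1.65. Ccnb1 was named after its value was seen. Of the remaining genes Id1 had a log2 fold of 2.46 (adjusted p = 0.671) and Srebf1 one of -1.07 (0.0666) in the authors' deposited table, and neither passed. This list too was drawn up with earlier results of these data known, so its shares describe it and carry no test.

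Upstream, the kinase genes moved in both directions. Of 23 entries for PI3K, AKT and SGK 4 rose (17.4%) and 1 fell (4.35%), with a median of 0.32. The shares over all tested entries were 5.72% and 5.61%. The kinase gene Akt1 had a log2 fold of -0.78 (adjusted p = 0.147) and Akt2 one of -0.40 (0.698) in the authors' deposited table, neither past the threshold. Sgk1, listed as Sgk, had a log2 fold of 0.84 (adjusted p of 0.182) in the authors' deposited table. Irs1, a further insulin receptor adaptor, passed (0.0306) with a ratio listed as Inf, so it has no fold, and the regulatory subunit gene Pik3r6, listed as BB220380, fell (-1.19, 0.0380) in the authors' deposited table.

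Among 16 entries for brakes on the pathway 2 rose (12.5%, against 5.72% of all tested entries) and 0 fell. Inpp4b, a lipid phosphatase gene, rose (log2 2.92, adjusted p = 0.0259) in the authors' deposited table. Inpp5d, the gene of the phosphatase SHIP1 and a known miR-155 target, had a log2 fold of -0.14 (adjusted p of 0.870) in the authors' deposited table, with an interval from -0.56 to 0.28.

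Of 28 entries for genes whose proteins act on FOXO 1 rose (3.57%) and 5 fell (17.9%), with a median of -0.18. The shares over all tested entries were 5.72% and 5.61%. The 14-3-3 genes Ywhag (log2 -1.79, adjusted p = 9.32e-05), Ywhae (-1.18, 0.0135) and Ywhah (-1.25, 0.0151) fell in the authors' deposited table, the last of them named after its value was seen. Prmt1, whose methyl marks on FOXO1 block AKT, fell (-2.34, 5.17e-05), as did the cell cycle kinase gene Cdk1, listed as Cdc2a (-1.28, 0.00372), in the authors' deposited table. Ogt, the enzyme that adds sugar residues to FOXO1 and many other proteins, rose (1.98, 3.44e-05) in the authors' deposited table.

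Transcript length moved with direction over the table. The 14787 entries with a length were ordered into 10 bins of equal size. In the longest bin 15.2% rose and 2.64% fell, and in the shortest 0.744% rose and 14.5% fell. Klf2, Pik3ip1, Txnip, Ccng2 and S1pr1 have transcripts of 1847 to 3046 bases, in bins where between 2.10% and 3.45% rose. Cdkn1b (4552 bases) lies in a bin where 6.90% rose. Measured from the median of its own bin, the log2 fold of S1pr1 was 2.41, of Txnip 1.36 and of Cdkn1b 1.06, while that of Foxo1 was 0.21.

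**Figure D4:**
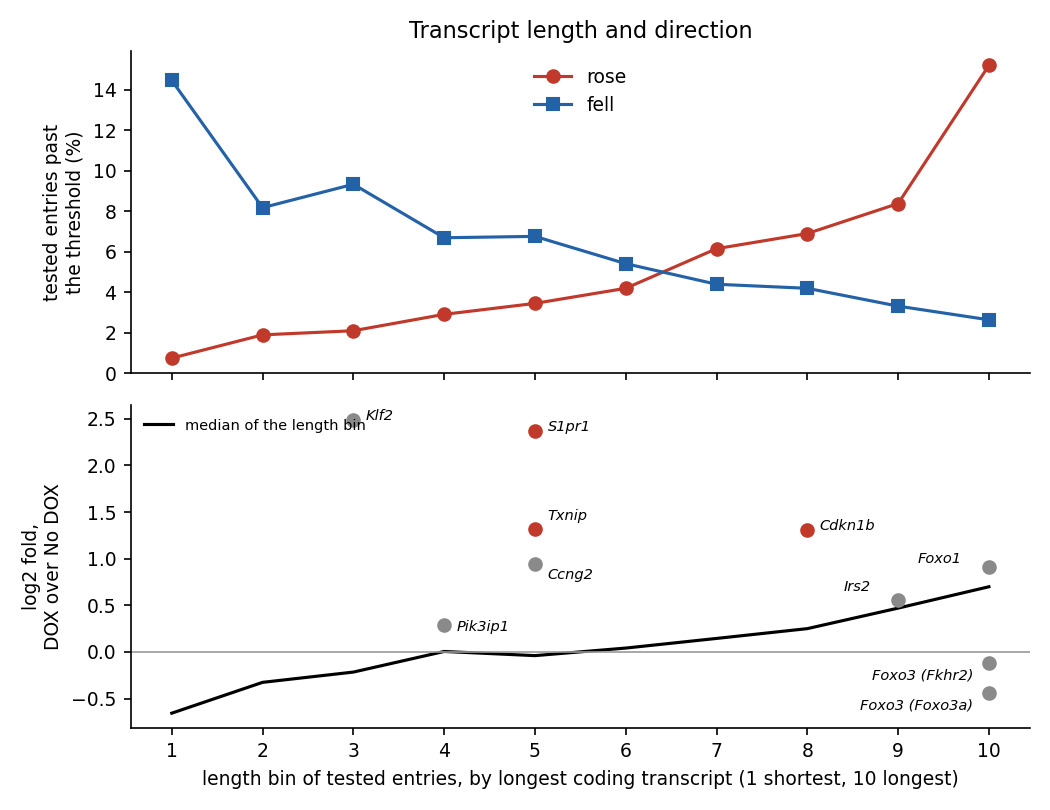
Tested entries in 10 bins by length of their longest coding transcript, from shortest to longest; the upper panel gives the percentage that rose or fell, and the lower panel the median log2 fold of each bin (line) with the FOXO genes and targets (points, red where adjusted p is under 0.05). Klf2, S1pr1, Txnip, Cdkn1b and Ccng2 lie well above the line at their length, Foxo1, Irs2 and Pik3ip1 lie near it, and both Foxo3 entries lie below it.

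The wider target lists were split by length in the same way. In the longest 2 bins 7 of 17 FOXO target entries rose (41.2%), against 11.8% of all 2958 entries there. In the other 8 bins 9 of 62 rose (14.5%), against 3.54% of 11829. These lists were chosen with earlier results known, so the shares describe them and carry no test. The part of transcript length in these folds was not tested further.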

How the data were processed

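RNA-seq of 3 DOX and 3 No DOX tumour samples was used. Per the labels' protocols, RNA came from dispersed tumour tissue after lysis of red cells, and ribosomal RNA was removed. RSEM, DESeq and build mm9 are named in the submitters' processing notes, without versions. The deposited file holds a linear ratio (fold change) per entry, per the file headers, with the authors' p-values unadjusted and adjusted. It gives no counts, so depth and the spread of single samples are unknown.

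Log2 folds were computed from the ratio (Python 3.11.15, pandas 2.3.3, scipy 1.17.1). Inf (2180 tested entries) and 0 (579) got no fold. The authors' adjusted p equals a Benjamini-Hochberg adjustment over all 18543 tested entries within 2.09e-06. For p up to 0.9, the approximate error is the size of the log2 fold divided by the normal quantile of p, and 95% intervals follow from it. Entries were matched to RefSeq names (GRCm38.p6) by symbol (11736), accession (1406) or unique synonym (2022), and 3379 had none. No coordinates of the table's build are given. Where genes have near-identical copies, the division of reads is uncertain.

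The genes and lists were chosen with earlier results of these data known. Besides these genes, up to 5 called members per list were named, by adjusted p, and some set genes whatever their values. Some list members are not reported here by name. The Benjamini-Hochberg adjustment and the motif search were tested on simulated data. The intervals, name matching, length bins and seed search were not. Alternatives were other thresholds, Bonferroni, restricted test sets, a fold minimum, centring and a shorter motif.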

Additional observations from a re-analysis of the deposited data

How the results depend on the processing

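The count of FOXO genes and targets that rose, 3, stayed at 3 when only protein-coding matches (Benjamini-Hochberg over these), only finite folds, or only folds of at least 2 were kept, and was 4 at an adjusted p under 0.1, where Ccng2 joined. It was 1, Txnip, at an adjusted p under 0.01 and 0 under Bonferroni, both stricter by construction. None fell under any of these settings. Over all tested entries 576 rose and 569 fell at 0.01, and 137 and 154 under Bonferroni. Entries of the 15 lists that rose numbered 22, and 12 at 0.01, while those that fell numbered 17, and 9 at 0.01. The targets' median of 1.31 became 1.14 when centred on the median of all entries (0.17) and 1.06 when centred on that of the same length bin, and no sign turned among the called genes. Chosen after seeing the data, leaving out targets on a cell type marker list left 14 rises of 16, and counting Plk1 and Ccnb1 with the targets gave 3 falls in place of 1. With the FOXO core in place of the element 6.33% rose and 4.73% fell, against 5.1% and 7.17% of entries without the core. No replicate could be left out, nor a pseudocount or filter varied, with no values per sample. No paired analysis was possible because the table has none. What depth limits is unknown.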

Other observations

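Genes that stand in the table under more than 1 name often carried different values. Of 513 genes with several tested entries and finite folds, 201 (39.2%) had entries on both sides of a ratio of 1, and the median range between entries of a gene was 1.27 on the log2 scale. In 93 of them some but not all entries passed, and in 17 all did. Around the FOXO factors this touched Arrdc3 and Prmt1, whose entry Mrmt1 had a log2 fold of -0.52 (adjusted p = 1) in the authors' deposited table. The inhibitor kinase gene Ikbkb had log2 folds of 1.82 (0.108) as IKKbeta and 0.03 (1) as Ikbkb there. Sesn3, a stress-induced brake on mTOR signalling, had 0.77 (0.429) as BC003348 and -0.10 (1) as Sesn3 in the authors' deposited table. The Rptor gene, of the other mTOR complex, had 1.23 (0.368) as Raptor and -0.30 (0.761) as 4932417H02Rik in the authors' deposited table.

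Other FOXO targets did not pass at 0.05 by the authors' adjusted p. Rag2, the partner of Rag1, had a log2 fold of 3.57 (adjusted p = 0.103), the selenium carrier gene Selenop, listed as Sepp1, one of 2.48 (0.0901), and the chemokine receptor gene Cxcr4 one of 1.18 (0.0952) in the authors' deposited table. Targets that did not pass also lay below a ratio of 1, among them Eif4ebp1 (-1.16, 0.124), Cdkn2d (-0.93, 0.177) and Sod2 (-0.84, 0.248) there. Over all FOXO target lists 55 of 77 finite folds were above 1.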
